A study of Mus musculus with 16 samples.

Results

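Calcineurin, the calcium/calmodulin-dependent kinase CaMKII and the transcription factors they act on were followed through 10 genes, taken from the deposited table by gene symbol. They were Ppp3ca, Ppp3cb, Rcan1, Camk2d, Nfatc3, Mef2a, Mef2c, Mef2d, Gata4 and Hdac9, 10 of the 57010 gene models in that table. All 10 were among the 14066 genes with enough counts to test. RNA was sequenced from cardiomyocytes isolated from the hearts of C57BL/6 mice in 16 libraries, 4 in each of 4 groups.

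The first group, PRODH TAC, had received AAV9-PRODH, an adeno-associated virus meant to overexpress proline dehydrogenase in the heart, and then transverse aortic constriction (TAC), a band on the aorta that puts the left ventricle under pressure. The second, vector TAC, had received AAV9-Vector, a virus without that gene, and TAC. The third, PRODH sham, had received AAV9-PRODH and a sham operation, and the fourth, vector sham, AAV9-Vector and a sham operation. Surgery followed the injection by 3 weeks in all groups, and cells were collected 4 weeks after surgery. The labels call the AAV9-Vector animals WT and the others PRODH overexpressing, and give neither an age nor the promoter in the virus. Whether each library stands for its own animal is not stated in the labels, so the p-values cover only library-to-library spread, part of which may be technical.

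Calcineurin is a phosphatase that calcium and calmodulin switch on. It removes phosphate from NFAT proteins, which then enter the nucleus and act beside GATA4 and MEF2 on genes of hypertrophic growth. CaMKII and protein kinase D phosphorylate the class IIa histone deacetylases, which leave the nucleus and release MEF2 from repression. The activity of all these proteins is set largely by calcium and phosphate, which transcript levels do not measure, while Rcan1, an inhibitor of calcineurin that NFAT itself induces, is widely read as a transcript that follows calcineurin activity.

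The libraries held 15987580 to 22680212 counts in all, in 18346 to 20445 gene models each. Prodh, the gene the virus was meant to raise, had 12.3 to 14.7 CPM in PRODH TAC and 6.19 to 8.38 CPM in vector TAC, and 12.6 to 14.8 CPM in PRODH sham and 10.4 to 11.5 CPM in vector sham (CPM is counts scaled to a common library total with TMM, which allows for composition). In edgeR's quasi-likelihood test, from which all adjusted p-values here come unless another test is named, its log2 fold change was 0.90 ± 0.10 (SE, adjusted p = 2.19e-08) between the TAC groups and 0.33 ± 0.10 (adjusted p = 0.0517) between the sham groups. Prodh also fell in vector TAC over vector sham, by 0.58 ± 0.11 (adjusted p = 2.58e-05). In PRODH TAC over PRODH sham it was at -0.02 ± 0.10 (adjusted p = 0.904). The difference between the TAC groups thus includes that fall and is not a measure of the virus alone. The labels do not give the sequence of the virus. The 12 cardiomyocyte markers were detected in every library and summed to 37620 CPM or more, but markers of other cells were detected as well. The 11 fibroblast markers summed to 433.7 to 553.5 CPM in PRODH TAC, 1702 to 1823 CPM in vector TAC, 228.6 to 237.5 CPM in PRODH sham and 184.5 to 256.3 CPM in vector sham, and none was at 0 in any library. In such bulk samples, fewer cells of a type and less RNA per cell cannot be told apart. Vector TAC libraries 3 and 4 had 20080 and 22060 CPM of mt-Nd4, a mitochondrial transcript, against 25950 or more in the other 14 libraries. Mitochondrial-genome genes as a whole held 35.11% and 35.92% of their counts, no less than the 34.55% and 34.67% in vector TAC libraries 1 and 2. Results that rest on libraries 3 and 4 are given with and without them.

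Rcan1 moved far more than any other member. It was 2.51-fold as high in vector TAC as in vector sham, and 0.467-fold in PRODH TAC relative to vector TAC. It was also lower with PRODH after the sham operation, and its 4 groups did not overlap. Between TAC groups the kinase Camk2d and the factors Mef2a, Mef2c and Mef2d were higher with PRODH. No comparison of Ppp3ca, Nfatc3 or Gata4 passed the test, and Ppp3cb passed in vector TAC over vector sham.

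**Figure D1:**
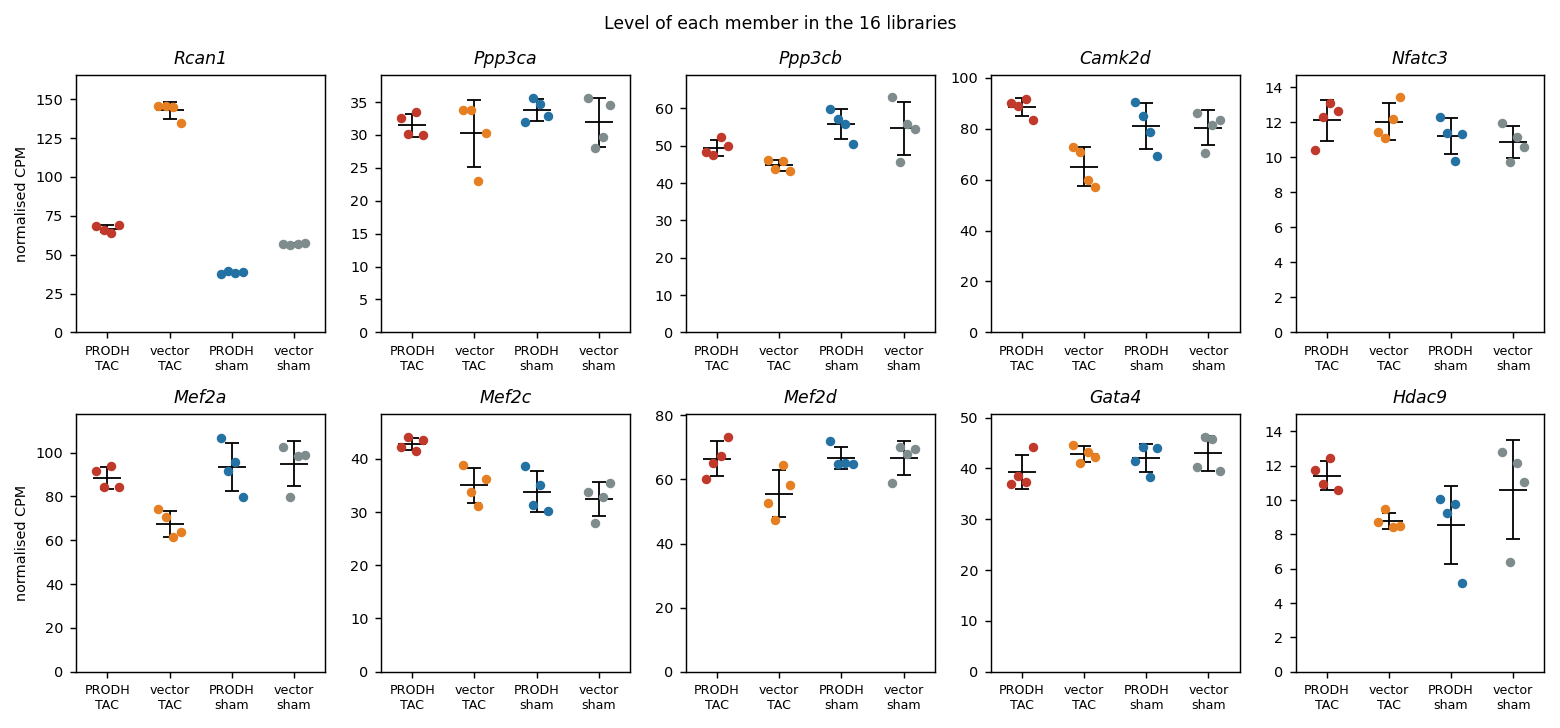
Normalised CPM of each of the 10 genes in every library (points, 4 per group) with the group mean (long bar) and SD (whiskers), each panel on its own linear axis from 0. Rcan1 has 4 separate bands, from 134.9 CPM or more in vector TAC down to 39.5 CPM or less in PRODH sham, while Gata4 and Nfatc3 overlap in all groups.

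Levels between genes were compared per kilobase of the gene length given in the deposited table. How that length is defined is not stated, and the order of the genes rests on it. It is 1791 bases for Mef2d and 5538 bases for Mef2a. Before the division, Mef2a averaged 95.03 CPM and Mef2d 66.7 CPM in vector sham. In vector sham, Mef2d (37.2 ± 2.94 CPM per kb, SD, n = 4) and Camk2d (36.3 ± 3.10 CPM per kb) stood highest and did not differ beyond their spread. Rcan1 (24.5 ± 0.145), Mef2a (17.2 ± 1.86), Ppp3ca (14.6 ± 1.69), Ppp3cb (14.3 ± 1.87) and Gata4 (12.6 ± 1.02 CPM per kb) followed, of which the last 3 lay within each other's spread. Mef2c (5.18 ± 0.513), Hdac9 (3.31 ± 0.904) and Nfatc3 (1.82 ± 0.156 CPM per kb) were lowest. In vector TAC, Rcan1 stood first at 61.4 ± 2.28 CPM per kb, above Mef2d (31.03 ± 4.13) and Camk2d (29.4 ± 3.53 CPM per kb), and in PRODH TAC its place was after Camk2d and Mef2d, at 28.7 ± 0.937 CPM per kb. Counts of Mef2a and Mef2d were fractional in all 16 libraries and those of Nfatc3 in 12. Reads divided between gene models can give such counts, but the counter is not stated and the source was not checked. Levels of Mef2a, Mef2d and Nfatc3 are therefore taken as less certain than those of the other members, whose counts were whole.

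The calcium-dependent phosphatase itself is described first. Ppp3cb, the beta catalytic subunit, had 48.3, 47.4, 52.2 and 49.9 CPM in PRODH TAC, 46.1, 43.8, 46.0 and 43.3 CPM in vector TAC, 59.9, 57.3, 55.7 and 50.6 CPM in PRODH sham, and 63.0, 45.6, 55.7 and 54.4 CPM in vector sham. The PRODH TAC libraries all lay above the vector TAC libraries, while vector TAC and vector sham overlapped through vector sham library 2 alone. Its log2 fold change in vector TAC over vector sham was -0.28 ± 0.08 (SE, adjusted p = 0.00294), but with library size alone as the scale it was 0.07 (adjusted p = 0.499). In PRODH TAC over vector TAC it was 0.14 ± 0.08 (adjusted p = 0.14), and 5 of the other settings put it past the threshold, among them a fit of those 2 groups only (0.19, adjusted p = 0.023). Ppp3ca, the alpha subunit, averaged 31.5 ± 1.75 CPM in PRODH TAC, 30.2 ± 5.12 CPM in vector TAC, 33.8 ± 1.68 CPM in PRODH sham and 31.9 ± 3.71 CPM in vector sham (SD, n = 4 each). Vector TAC library 3 was low at 22.96 CPM, against 30.3 CPM or more in its group, and no comparison of Ppp3ca passed the test.

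Rcan1 (ENSMUSG00000022951), which binds and inhibits calcineurin, had 68.1, 65.7, 64.1 and 68.8 CPM in PRODH TAC, 146, 146, 145 and 135 CPM in vector TAC, 37.6, 39.5, 38.2 and 38.9 CPM in PRODH sham, and 56.8, 56.4, 57.05 and 57.2 CPM in vector sham. Every PRODH TAC library was below every vector TAC library and above every sham library, and every PRODH sham library was below every vector sham library. The log2 fold change was 1.33 ± 0.06 in vector TAC over vector sham (adjusted p = 2.65e-17) and -1.10 ± 0.06 in PRODH TAC over vector TAC (adjusted p = 3.33e-15). It was 0.79 ± 0.06 in PRODH TAC over PRODH sham (adjusted p = 6.25e-11) and -0.56 ± 0.06 in PRODH sham over vector sham (adjusted p = 2.59e-07). The TAC change was thus smaller under PRODH, with an interaction of -0.54 ± 0.09 (adjusted p = 2.63e-05). The sign and the call of Rcan1 were the same in all 25 other settings of each comparison (24 for the interaction), with vector TAC over vector sham between 1.31 and 1.68 and PRODH TAC over vector TAC between -1.13 and -1.05.

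Rcan1 has a pair of annotated transcription starts on the minus strand of chromosome 16, an upstream one and one inside the gene, and the transcript from the internal start is the one known as a target of calcineurin and NFAT. The 250 bases before each start are shown, 5′ to 3′ on the gene's strand, from RefSeq on GRCm38.p6, because the core that NFAT proteins bind, GGAAA, is distributed unequally between them. Capitals mark GGAAA or its reverse complement TTTCC.
Rcan1 upstream start, chr16:92466170-92466419: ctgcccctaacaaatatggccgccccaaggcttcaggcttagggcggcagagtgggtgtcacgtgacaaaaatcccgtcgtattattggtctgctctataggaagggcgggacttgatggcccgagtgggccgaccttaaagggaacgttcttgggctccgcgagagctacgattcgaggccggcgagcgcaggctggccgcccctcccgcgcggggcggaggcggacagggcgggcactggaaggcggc
Rcan1 internal start, chr16:92400079-92400328: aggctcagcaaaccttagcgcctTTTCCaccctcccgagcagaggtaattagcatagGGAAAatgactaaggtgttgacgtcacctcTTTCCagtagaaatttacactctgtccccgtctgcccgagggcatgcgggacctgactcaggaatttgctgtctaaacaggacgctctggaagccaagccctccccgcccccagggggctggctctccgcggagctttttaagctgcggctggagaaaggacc
The upstream window held 0 matches on either strand and the internal window 3. Of 32851 windows of the same length in the table, 55.57% held at least 1 match and 6.39% at least 3. Among the 13 windows of the 8 members that have one, Mef2c's first window held 5 matches, a number that 0.39% of all windows reached, and Ppp3cb's held 3. A match describes the letters and is not a binding site, and the gene counts add both Rcan1 starts, so they do not tell which transcript changed.

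Rcan1 was then set against the other genes of the RCAN family, whose shares of the family level per kilobase do not depend on how libraries are scaled. Rcan1 held 24.6% ± 0.894 of it in PRODH TAC, 42.8% ± 0.805 in vector TAC, and after sham 14.99% ± 0.233 with PRODH and 19.5% ± 0.606 with the vector (SD, n = 4 each). Rcan2, a second inhibitor of calcineurin, held most of the remainder, with 74.5%, 56.3%, 84.3% and 79.9% in the same order of groups. The Rcan1 share did not overlap between PRODH TAC and vector TAC, or between vector TAC and vector sham. Each of these differences had p = 0.0286 in a two-sided exact permutation test, the smallest that 4 against 4 libraries can give. The value was 0.0857 after adjustment over the 18 shares tested, none of which passed 0.05. From that floor the adjustment could pass 0.05 only if most of the 18 shares stood at it. Not passing is therefore no evidence that a share, here or below, stayed the same. In the test across genes with TMM, Rcan2 fell in vector TAC over vector sham, with a log2 fold change of -0.31 ± 0.06 (adjusted p = 7.66e-05). That fall is close in size to those of Ppp3cb (-0.28) and Camk2d (-0.30), which turned positive under library size alone. The Rcan2 value under that scaling is not given here, so its fall may depend on the scaling too.

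**Figure D2:**
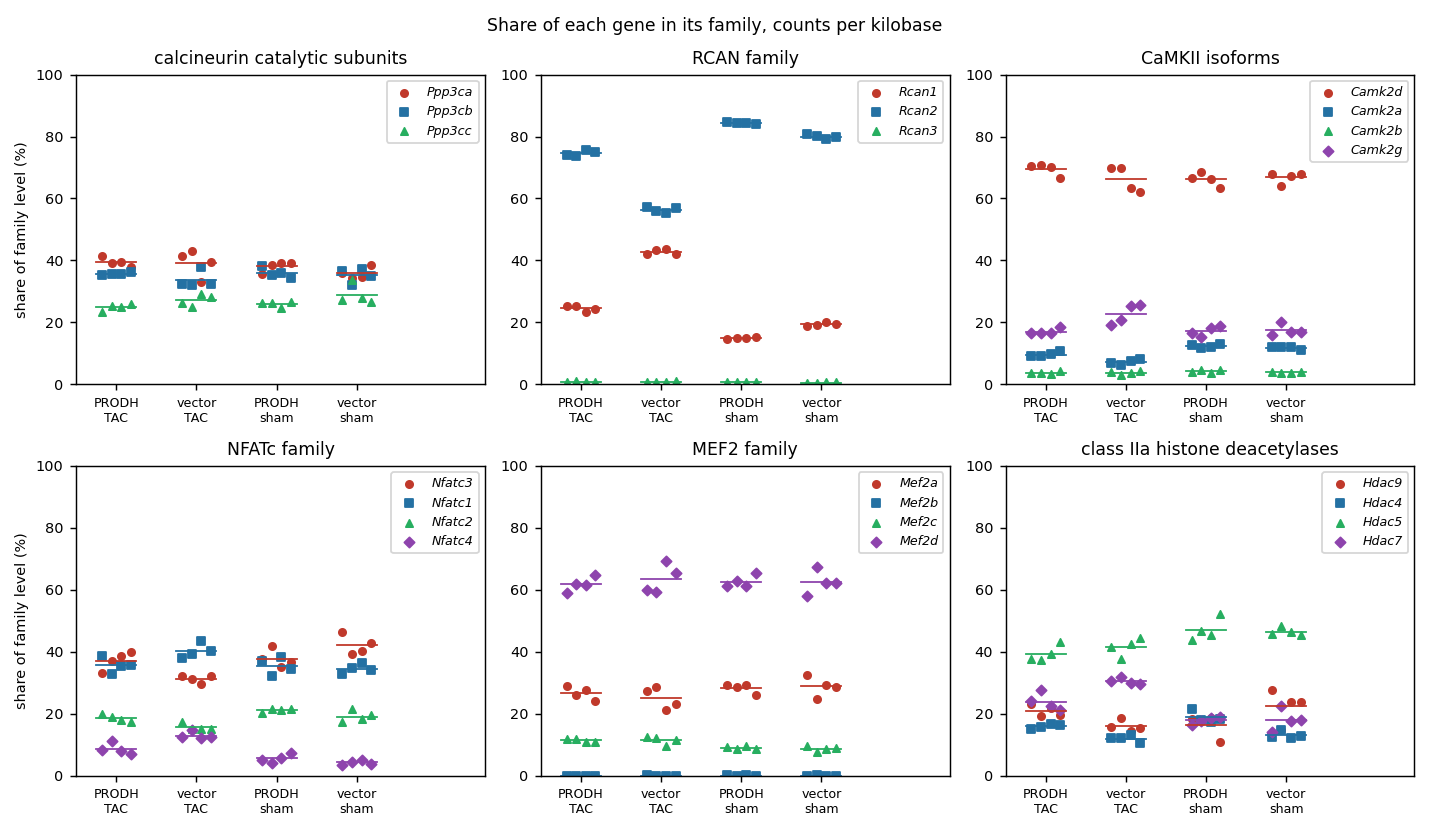
Share (%) of each family's summed level per kilobase held by each gene, in every library (points, 4 per group; lines are group means). Rcan1 takes 42.8% of the RCAN family in vector TAC and 24.6% in PRODH TAC, and the group means of Camk2d lie between 66.2% and 69.6% of CaMKII.

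The 5 genes whose pattern over the 16 libraries was closest to that of Rcan1, among 8043 genes compared, were Tnfrsf12a, Abra, Uck2, Osmr and Tgfb3. Likeness was the root-mean-square difference in log2 CPM after each gene was centred on its mean, which came to 0.141 for Tnfrsf12a, a receptor of the TNF family, and 0.148 for Abra, an actin-binding protein of striated muscle. Tnfrsf12a averaged 25.8 CPM in PRODH TAC, 61.2 CPM in vector TAC, 18.1 CPM in PRODH sham and 24.2 CPM in vector sham. Abra averaged 35.4, 73.2, 23.7 and 28.9 CPM in the same groups. For Uck2, a uridine-cytidine kinase, the difference was 0.164, for Osmr, the oncostatin M receptor, 0.173, and for the growth factor Tgfb3 0.177. No other member came near Rcan1, the closest being Nfatc3 at 0.657, while among the others Camk2d and Mef2a differed from each other by only 0.113.

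In vector TAC over vector sham, 5 of the 10 members passed the test, against 56.5% of all genes. Of these, 1 rose and 4 fell. Over all 14066 genes tested, at the same threshold of 0.05 on the adjusted p, 30.3% rose and 26.2% fell, and with 10 members a difference of 1 or 2 genes from these shares is small. The median log2 fold change of the members was -0.17, against 0.02 over all genes. The member that rose was Rcan1, and those that fell were Ppp3cb, Camk2d, Mef2a and Mef2d. The groups did not overlap for Rcan1 and Mef2a, 2 of 10 members, against 47.1% of all genes. These falls depended on how libraries are scaled. With library size alone in place of TMM, the median of all genes shifted to 0.37, and 86.2% of all calls were rises against 53.6% with TMM. In that setting 5 of the 10 members were called higher and 0 lower, and 7474 of the 14066 genes were called higher. Ppp3cb, Camk2d and Mef2d turned to small positive values that still lay below the shifted median. The 5 were Rcan1, Mef2c, Nfatc3, Gata4 and Ppp3ca, of which Gata4 (0.35) and Ppp3ca (0.28) also turned from small negative values.

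**Figure D3:**
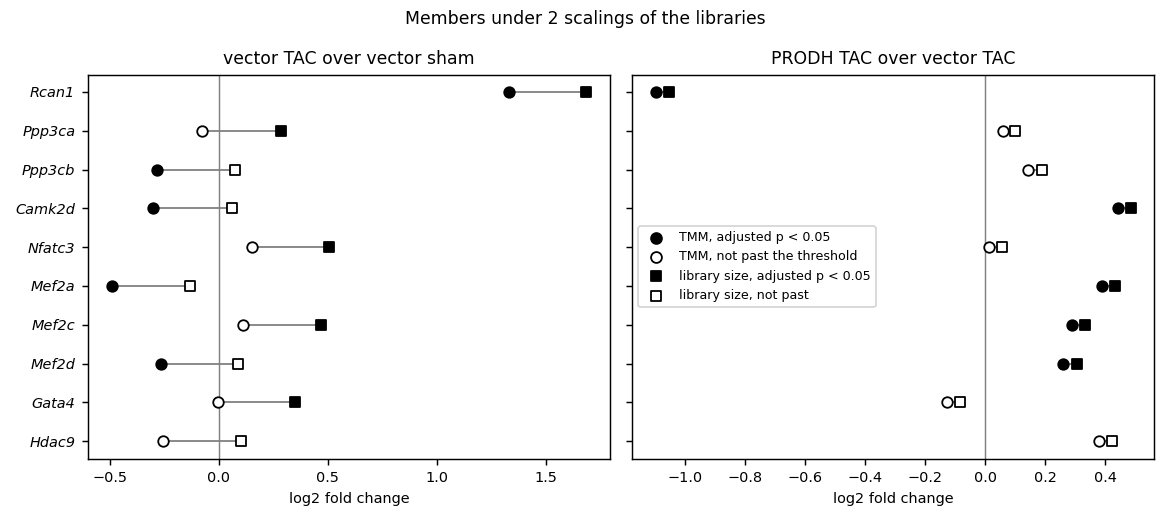
Log2 fold change of each of the 10 genes with TMM (circles) and with library size alone (squares), filled where adjusted p is below 0.05. In vector TAC over vector sham all members move right by about the shift of the all-gene median. This takes Ppp3cb, Camk2d, Mef2d, Hdac9, Gata4 and Ppp3ca across 0. The calls of Ppp3cb, Camk2d, Mef2d and Mef2a end, and Gata4, Ppp3ca, Mef2c and Nfatc3 are newly called higher. In PRODH TAC over vector TAC no member changes side of 0 or of the threshold.

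Camk2d, the delta isoform that is the main CaMKII of the heart, had 89.9, 88.8, 91.7 and 83.5 CPM in PRODH TAC, 72.9, 70.7, 59.8 and 57.1 CPM in vector TAC, 90.4, 85.1, 78.9 and 69.4 CPM in PRODH sham, and 86.1, 70.5, 81.4 and 83.5 CPM in vector sham. PRODH TAC did not overlap with vector TAC, whose libraries 3 and 4 were the lowest of the 16. The log2 fold change in PRODH TAC over vector TAC was 0.44 ± 0.08 (adjusted p = 0.000102), and it stayed past the threshold in all other settings, between 0.30 and 0.50. In vector TAC over vector sham it was -0.30 ± 0.09 (adjusted p = 0.00343), and without vector TAC libraries 3 and 4 it was -0.16 (adjusted p = 0.147). The interaction was 0.43 ± 0.12 (adjusted p = 0.00802), and 0.29 (adjusted p = 0.0799) without those libraries. As a share of the 4 CaMKII genes per kilobase, Camk2d held 69.6% ± 2.01 in PRODH TAC, 66.3% ± 4.18 in vector TAC and 66.9% ± 1.83 in vector sham, and these groups overlapped.

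Nfatc3, an NFAT factor on which calcineurin acts, averaged 12.1 ± 1.17 CPM in PRODH TAC, 12.03 ± 1.04 CPM in vector TAC, 11.2 ± 1.04 CPM in PRODH sham and 10.9 ± 0.935 CPM in vector sham (SD, n = 4 each). Its libraries overlapped between all groups and no comparison passed the test, with log2 fold changes of 0.01 ± 0.10 in PRODH TAC over vector TAC and 0.15 ± 0.10 in vector TAC over vector sham. Its share of the 4 NFATc genes was nonetheless 37.2% ± 2.96 in PRODH TAC, 31.2% ± 1.24 in vector TAC and 42.1% ± 3.23 in vector sham, without overlap between PRODH TAC and vector TAC or between vector TAC and vector sham (exact permutation p = 0.0286 each, 0.0857 adjusted). Other members of that family rose in vector TAC over vector sham. Nfatc4, the NFAT factor best known from hypertrophy, was scarce, with 1.54 ± 0.353 CPM in PRODH TAC, 2.72 ± 0.208 CPM in vector TAC, 0.916 ± 0.258 CPM in PRODH sham and 0.605 ± 0.128 CPM in vector sham. Its log2 fold change was 2.15 ± 0.24 in vector TAC over vector sham (adjusted p = 8.82e-09) and -0.82 ± 0.20 in PRODH TAC over vector TAC (adjusted p = 0.00137). Nfatc1, known from the endocardium and immune cells, rose by 0.80 ± 0.11 in vector TAC over vector sham (adjusted p = 4.73e-07) and fell by 0.42 ± 0.10 in PRODH TAC over vector TAC (adjusted p = 0.00162, and 0.119 without vector TAC libraries 3 and 4). The 12 endothelial markers moved the same way, summing to 861.8 to 992.1 CPM in PRODH TAC, 1157 to 1327 CPM in vector TAC, 676.6 to 729.5 CPM in PRODH sham and 615.4 to 746 CPM in vector sham, as did the fibroblast markers given above. Their part in the NFAT values was not tested.

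The MEF2 factors bind muscle gene promoters and carry much of the signal from CaMKII. Mef2a, the most counted of them, had 91.5, 84.4, 93.8 and 84.3 CPM in PRODH TAC, 74.3, 70.8, 61.3 and 63.7 CPM in vector TAC, 107, 91.6, 95.6 and 79.9 CPM in PRODH sham, and 103, 79.8, 98.5 and 99.1 CPM in vector sham. The 4 vector TAC libraries were below all other 12. The log2 fold change was -0.49 ± 0.09 in vector TAC over vector sham (adjusted p = 1.62e-05, but -0.13 with adjusted p = 0.268 under library size alone) and 0.39 ± 0.09 in PRODH TAC over vector TAC (adjusted p = 0.000492). The TAC change differed between the viruses by 0.41 ± 0.12 (adjusted p = 0.0117), which was 0.31 (adjusted p = 0.0874) without vector TAC libraries 3 and 4.

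Mef2c, required for heart development, had 42.3, 44.1, 41.5 and 43.5 CPM in PRODH TAC, 38.9, 33.8, 31.1 and 36.3 CPM in vector TAC, 38.6, 31.3, 35.2 and 30.2 CPM in PRODH sham, and 33.7, 28.01, 32.8 and 35.6 CPM in vector sham. The PRODH TAC libraries were the 4 highest of all, and the other groups overlapped. It was higher in PRODH TAC over vector TAC by 0.29 ± 0.08 (adjusted p = 0.00577, and 0.0631 without vector TAC libraries 3 and 4) and in PRODH TAC over PRODH sham by 0.34 ± 0.08 (adjusted p = 0.0022). In vector TAC over vector sham it was 0.11 ± 0.09 (adjusted p = 0.281). The difference between these TAC changes did not pass the test, at 0.23 ± 0.12 (adjusted p = 0.16). Mef2d, which transmits stress signals in the adult heart, had 60.1, 65.0, 67.4 and 73.2 CPM in PRODH TAC, 52.5, 47.3, 64.4 and 58.2 CPM in vector TAC, 71.9, 64.9, 65.2 and 65.0 CPM in PRODH sham, and 58.9, 70.3, 68.0 and 69.6 CPM in vector sham. Vector TAC held its 3 lowest libraries, 1, 2 and 4, and overlapped with every other group except PRODH sham. Its log2 fold change was 0.26 ± 0.08 in PRODH TAC over vector TAC (adjusted p = 0.0129, and 0.0584 without vector TAC library 2) and -0.27 ± 0.08 in vector TAC over vector sham (adjusted p = 0.00801, but 0.09 with adjusted p = 0.4 under library size alone). Within the MEF2 family per kilobase, Mef2d held 61.8% ± 2.39 in PRODH TAC, 63.4% ± 4.72 in vector TAC and 62.5% ± 3.90 in vector sham. Its lower CPM in vector TAC thus went with lower CPM of Mef2a. The size of these shares rests on the deposited length, which is shorter for Mef2d than for Mef2a or Mef2c. Mef2c held 11.4% ± 0.598, 11.5% ± 1.36 and 8.69% ± 0.775 in the same groups. Its share did not overlap between vector TAC and vector sham (exact permutation p = 0.0286, 0.0857 adjusted).

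Gata4, a zinc-finger factor that partners NFAT on cardiac promoters, averaged 39.2 ± 3.34 CPM in PRODH TAC, 42.8 ± 1.52 CPM in vector TAC, 42.0 ± 2.74 CPM in PRODH sham and 43.0 ± 3.49 CPM in vector sham. The groups overlapped and no comparison passed the test. The largest of its 4 log2 fold changes was -0.13 ± 0.07 in PRODH TAC over vector TAC (adjusted p = 0.171). Hdac9, a class IIa histone deacetylase that represses MEF2, had 11.7, 10.9, 12.4 and 10.6 CPM in PRODH TAC, 8.72, 9.46, 8.44 and 8.51 CPM in vector TAC, 10.04, 9.22, 9.74 and 5.19 CPM in PRODH sham, and 12.8, 6.39, 12.1 and 11.1 CPM in vector sham. PRODH TAC lay above vector TAC and PRODH sham in every library, while 1 library in each sham group was far below its group. Its log2 fold change in PRODH TAC over vector TAC was 0.38 ± 0.18 (adjusted p = 0.1), which 5 other settings put past the threshold, among them DESeq2 (adjusted p = 0.0475) and the fit without vector sham library 2 (adjusted p = 0.00613). Without that library it also fell in vector TAC over vector sham, by 0.46 (adjusted p = 0.00576), against -0.26 ± 0.19 (adjusted p = 0.263) with it. Of the class IIa deacetylases per kilobase, Hdac9 held 20.9% ± 1.85 in PRODH TAC, 16.1% ± 1.77 in vector TAC and 22.55% ± 5.56 in vector sham. Its share did not overlap between the TAC groups (exact permutation p = 0.0286, 0.0857 adjusted).

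In PRODH TAC over vector TAC, 5 of 10 members passed the test, against 43.1% of all genes, of which 4 were higher (Camk2d, Mef2a, Mef2c and Mef2d) and 1 was lower (Rcan1). Over all genes 18.5% were higher and 24.6% lower. The median of the members was 0.20, against -0.04 over all genes. The groups did not overlap for 6 of 10 members, against 39.3% of all genes. This comparison shares the vector TAC libraries with the one before it, so opposite signs in the pair are not independent. In PRODH TAC over PRODH sham, 2 of 10 members passed the test, against 35.0% of all genes, and 3 did not overlap between the groups, against 34.7%. Of the members, 2 rose (Rcan1 and Mef2c), against 17.2% of all genes, and 0 fell, against 17.8% of all genes. By edgeR's unadjusted p under 0.05, 1 member fell (Ppp3cb), by DESeq2 0 did, and under library size alone 9 rose, as did 7875 of the 14066 genes. In PRODH sham over vector sham, Rcan1 fell, as did 2.20% of all genes, and 0 of 10 members rose in edgeR, by its unadjusted p or in DESeq2, against 2.81% of all genes. The interaction passed the test for 3 of 10 members, against 26.8% of all genes. It was above 0 for Camk2d and Mef2a, as for 10.9% of all genes, and below 0 for Rcan1, as for 15.8%.

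**Figure D4:**
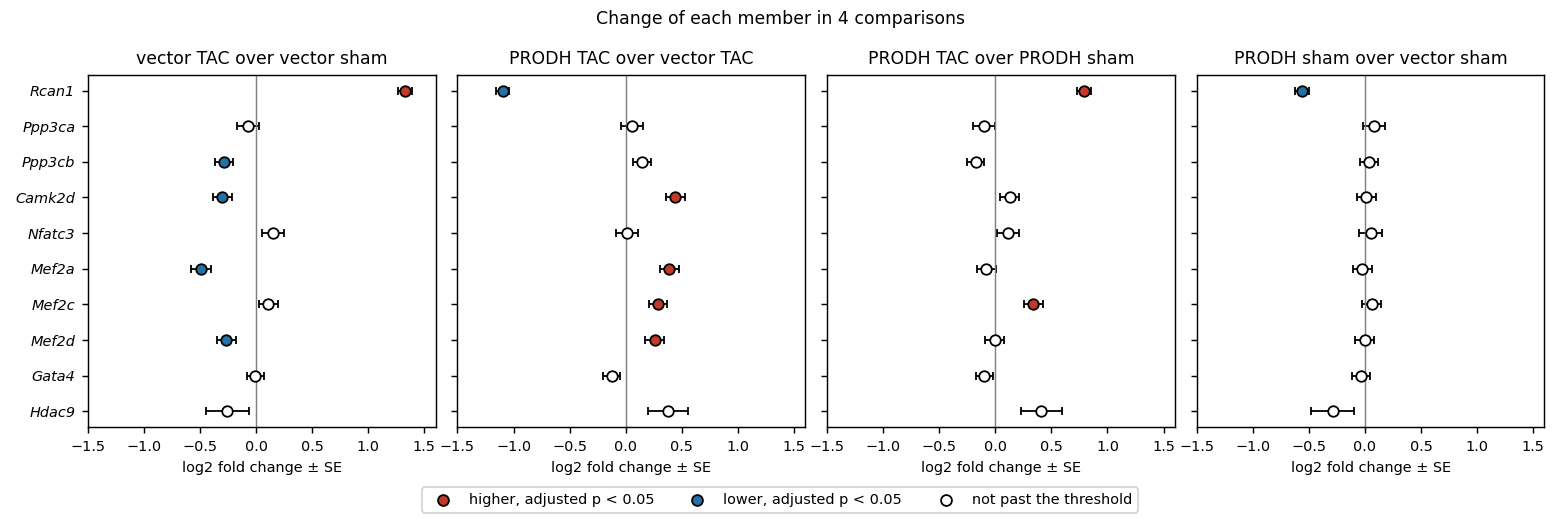
Log2 fold change (point) with its SE (whiskers) of each of the 10 genes in the 4 comparisons, filled red where higher and blue where lower at an adjusted p under 0.05. Rcan1 passes in all 4 panels, from 1.33 in vector TAC over vector sham to -1.10 in PRODH TAC over vector TAC, and the falls of Ppp3cb, Camk2d and Mef2d in the first panel turn to positive values under library size alone.

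The genes around the members depended on the scaling as the members did in vector TAC over vector sham, and the counts under library size alone are given beside those with TMM. Of 20 other calcineurin and NFAT genes tested, 7 rose and 5 fell in vector TAC over vector sham (median 0.14), while under library size alone 12 rose (median 0.49), and with TMM 4 were higher and 7 lower in PRODH TAC over vector TAC (median 0.04). Akap1, which anchors calcineurin and protein kinase A at mitochondria, averaged 57.8 ± 2.63 CPM in PRODH TAC, 47.6 ± 4.26 CPM in vector TAC, 55.3 ± 3.67 CPM in PRODH sham and 69.0 ± 3.09 CPM in vector sham. It fell by 0.54 ± 0.07 in vector TAC over vector sham (adjusted p = 2.53e-07, but 0.054 with library size alone) and was higher by 0.28 ± 0.07 in PRODH TAC over vector TAC (adjusted p = 0.00218), but lower by 0.32 ± 0.07 in PRODH sham over vector sham (adjusted p = 0.00548). The muscle LIM proteins Lmcd1 and Csrp3, both known to act on calcineurin signalling in heart muscle, were lower in PRODH TAC over vector TAC by 0.62 ± 0.09 (adjusted p = 1.57e-06) and 0.51 ± 0.08 (adjusted p = 5.42e-06). Neither passed in vector TAC over vector sham, at 0.15 ± 0.09 and 0.10 ± 0.08. Fkbp1a, the FK506-binding protein that also sits on the ryanodine receptor, rose by 0.37 ± 0.07 (adjusted p = 4.59e-05) after TAC under the vector and was lower by 0.45 ± 0.07 (adjusted p = 5.35e-06) in PRODH TAC over vector TAC.

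Of 17 other genes of the CaMK and protein kinase D pathway, 9 rose and 2 fell in vector TAC over vector sham (median 0.26), against 15 and 1 under library size alone (median 0.61), and with TMM 3 were higher and 9 lower in PRODH TAC over vector TAC (median -0.22). The falling gene with the smallest p was Camk2a, an isoform best known from neurons, which had 17.9 ± 1.45 CPM in PRODH TAC, 10.3 ± 0.828 CPM in vector TAC, 22.1 ± 2.11 CPM in PRODH sham and 20.7 ± 1.36 CPM in vector sham. Its change was -0.999 ± 0.09 in vector TAC over vector sham (adjusted p = 1.33e-10) and 0.80 ± 0.09 in PRODH TAC over vector TAC (adjusted p = 2.34e-08). Camk2n1, a peptide inhibitor of CaMKII, went the other way, with 7.90 ± 0.776 CPM in PRODH TAC, 13.7 ± 0.817 CPM in vector TAC, 8.21 ± 0.884 CPM in PRODH sham and 6.98 ± 0.710 CPM in vector sham. It rose by 0.96 ± 0.10 in vector TAC over vector sham (adjusted p = 3.88e-09) and was lower by 0.79 ± 0.10 in PRODH TAC over vector TAC (adjusted p = 1.36e-07). Prkd2, a protein kinase D, rose by 0.93 ± 0.10 (adjusted p = 5.64e-09), and its lower level in PRODH TAC over vector TAC, -0.27 ± 0.09 (adjusted p = 0.0219), was not past the threshold without vector TAC libraries 3 and 4 (adjusted p = 0.434).

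Of 12 other class II histone deacetylases and partners, 5 rose and 1 fell in vector TAC over vector sham (median 0.10), while under library size alone 11 rose (median 0.45), and with TMM 2 were higher and 5 lower in PRODH TAC over vector TAC (median -0.14). Hdac7, a class IIa enzyme known from endothelium, had 16.7 ± 2.28 CPM in PRODH TAC, 21.4 ± 0.703 CPM in vector TAC, 11.95 ± 0.478 CPM in PRODH sham and 10.8 ± 1.83 CPM in vector sham, and rose by 0.97 ± 0.10 in vector TAC over vector sham (adjusted p = 2.47e-09). It was lower by 0.35 ± 0.10 in PRODH TAC over vector TAC (adjusted p = 0.00343), beside the endothelial sums given above. The part of endothelial RNA in this was not tested. Ywhab and Ywhaz, 14-3-3 proteins that bind phosphorylated class IIa deacetylases, rose by 0.50 ± 0.07 and 0.43 ± 0.07 and were lower by 0.34 ± 0.06 and 0.34 ± 0.07 in the same comparisons (each adjusted p under 0.05). Hdac4, a class IIa enzyme of heart muscle, was higher with PRODH after both surgeries, by 0.42 ± 0.11 in PRODH TAC over vector TAC (adjusted p = 0.00205) and 0.70 ± 0.11 in PRODH sham over vector sham (adjusted p = 6.99e-05). It averaged 10.7 ± 0.901 CPM in PRODH TAC, 7.997 ± 0.993 CPM in vector TAC, 12.1 ± 1.71 CPM in PRODH sham and 7.43 ± 0.368 CPM in vector sham.

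Of 18 other cardiac transcription factors and cofactors, 6 rose and 6 fell in vector TAC over vector sham (median -0.10), against 9 and 2 under library size alone (median 0.26), and with TMM 6 were higher and 2 lower in PRODH TAC over vector TAC (median 0.04). Hopx, a homeodomain protein that restrains serum response factor, fell by 0.82 ± 0.08 in vector TAC over vector sham (adjusted p = 1.68e-10) and was higher by 0.40 ± 0.07 in PRODH TAC over vector TAC (adjusted p = 6.93e-05). It was also higher in PRODH sham over vector sham, by 0.33 ± 0.07 (adjusted p = 0.00473), and its TAC change did not pass the test for a difference between the viruses (interaction 0.07 ± 0.11, adjusted p = 0.64). Tbx5, a T-box factor of the heart, fell by 0.66 ± 0.12 and was higher by 0.58 ± 0.11 (adjusted p = 2.14e-05 and 0.000141), with an interaction of 0.29 ± 0.16 (adjusted p = 0.179). Myocd, a coactivator of serum response factor, was higher by 0.55 ± 0.11 in PRODH TAC over vector TAC (adjusted p = 0.000142), while Mrtfb, a related coactivator, rose by 0.66 ± 0.10 in vector TAC over vector sham (adjusted p = 8.53e-07) and was at 0.05 ± 0.09 in PRODH TAC over vector TAC (adjusted p = 0.704). Mrtfb was higher in PRODH sham over vector sham by 0.37 ± 0.10 (adjusted p = 0.0198).

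The last list held 13 genes commonly used as readouts of hypertrophic signalling. Of these, 9 rose and 2 fell in vector TAC over vector sham (median 0.92), against 11 and 2 under library size alone (median 1.27), and with TMM 2 were higher and 10 lower in PRODH TAC over vector TAC (median -0.86). Myh7, the beta myosin heavy chain of the fetal heart, averaged 22.2 ± 1.06 CPM in PRODH TAC, 711 ± 80.7 CPM in vector TAC, 10.3 ± 0.557 CPM in PRODH sham and 7.72 ± 0.999 CPM in vector sham. Nppb, the brain natriuretic peptide, averaged 336 ± 15.8 CPM in PRODH TAC, 748 ± 41.5 CPM in vector TAC, 116 ± 11.7 CPM in PRODH sham and 158 ± 9.37 CPM in vector sham. In these groups Nppb had the order of Rcan1, with PRODH sham lowest and vector TAC highest. It rose by 2.24 ± 0.08 in vector TAC over vector sham (adjusted p = 1.52e-20) and was lower by 1.16 ± 0.07 in PRODH TAC over vector TAC (adjusted p = 9.99e-14). Nppa, the atrial natriuretic peptide, and Fhl1, a LIM protein of the sarcomere, rose by 4.19 ± 0.10 and 0.92 ± 0.06 in vector TAC over vector sham and were lower by 2.66 ± 0.09 and 1.05 ± 0.06 in PRODH TAC over vector TAC (each adjusted p under 0.05).

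**Figure D5:**
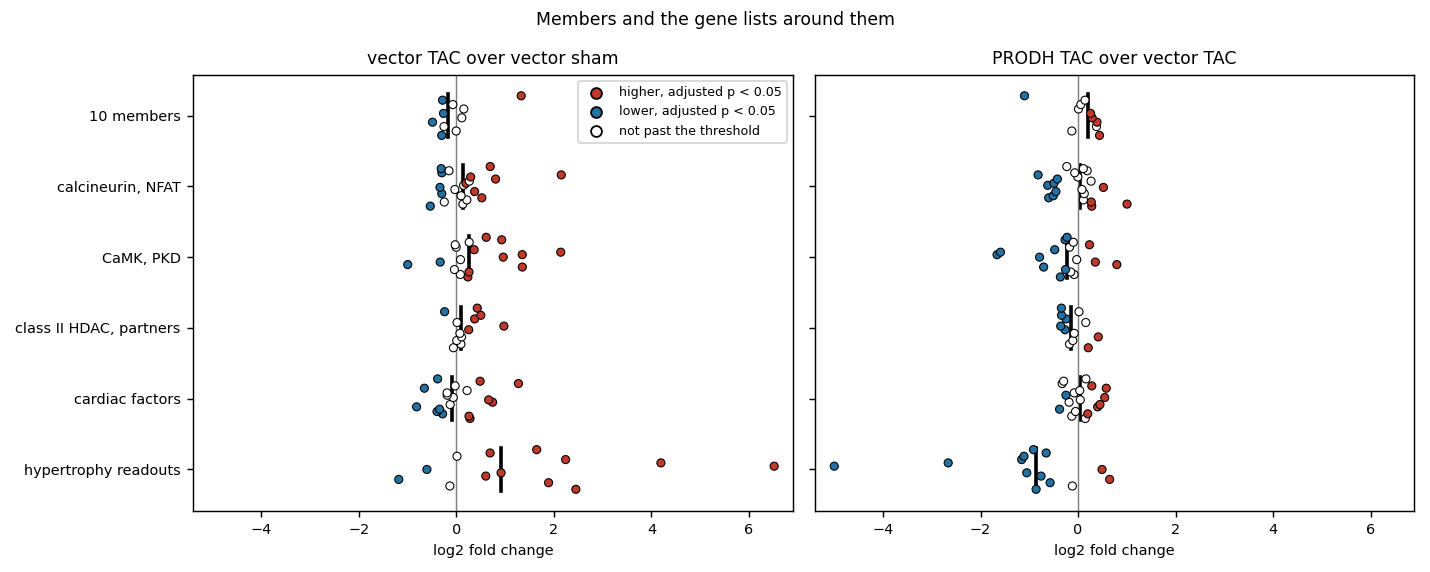
Log2 fold change of each gene (points) in the 10 members and the 5 surrounding lists, filled red where higher and blue where lower at an adjusted p under 0.05, with each list's median (black bar). In vector TAC over vector sham the list medians with TMM lie between -0.17 for the members and 0.92 for the hypertrophy readouts, and 4.19 and 6.52 are the values of Nppa and Myh7.

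Other RNA moved with these groups and is given as measured. Of the 11 fibroblast markers, 11 rose in vector TAC over vector sham and 11 were lower in PRODH TAC over vector TAC, and 12 of 12 endothelial markers did likewise. Of 12 myeloid markers, 12 rose and 10 were then lower, summing to 210.1 to 259.5 CPM in PRODH TAC, 374.2 to 404.9 CPM in vector TAC, 194 to 235.2 CPM in PRODH sham and 129.9 to 203.7 CPM in vector sham. Of 9 mural cell markers, 6 rose and 2 fell in vector TAC over vector sham, and 2 were higher and 5 lower in PRODH TAC over vector TAC. The 10 lymphoid markers summed to at most 4.553 CPM in any library. Of 14 early-response and heat-shock genes induced when cells are isolated, 7 rose and 2 fell in vector TAC over vector sham and 11 were lower in PRODH TAC over vector TAC, with sums of 463.9 to 514.5 CPM in PRODH TAC, 673 to 710.6 CPM in vector TAC, 498.6 to 536.9 CPM in PRODH sham and 557.6 to 610.6 CPM in vector sham. In PRODH sham over vector sham 3 of them were higher and 7 lower. In PRODH TAC over PRODH sham 1 rose and 5 fell, while under library size alone 8 rose. Their part in the values of Rcan1 was not tested. Nr4a1 is in both this list and the readouts, as are Myh6 and Actc1 in the cardiomyocyte markers and the readouts. Of the 12 cardiomyocyte markers, 9 fell in vector TAC over vector sham, while under library size alone 3 rose and 4 fell (median -0.01), and with TMM 4 were higher and 2 lower in PRODH TAC over vector TAC, with sums of 38250 to 42990 CPM in PRODH TAC, 37620 to 40350 CPM in vector TAC, 47360 to 54780 CPM in PRODH sham and 49350 to 54390 CPM in vector sham. The falls of Ppp3cb, Camk2d, Mef2a and Mef2d in vector TAC stood beside these with TMM, and the part of that in them was not tested. Among the libraries of a group, vector sham library 2 was the lowest for 8 of the 10 members and the highest for the other 2, Mef2d and Gata4.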

How the data were processed

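The authors made and deposited estimated counts (expected counts, not always whole) for each gene model and library, with a gene length whose definition is not stated. No aligner, counter, annotation or genome build was stated in the labels or headers (not given in the sources used here). Per the labels' protocols, RNA was extracted with TRIzol, treated with DNase I and made into libraries with a SMARTER mRNA-Seq kit. Columns were matched to samples by the sample codes in the titles. Of 57010 gene models, 9538 (16.7%) had a fractional count in at least 1 library. Libraries of a group differed beyond counting noise, with a chi-square per gene of 2.87 to 30.7 where the pair's counts reached 20 or more.

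Counts were rounded to whole numbers and fitted in R 4.3.3 with edgeR 4.0.16 (limma 3.58.1, data.table version 1.17.8) as 4 groups in all 16 libraries, after filterByExpr (minimum count 10, minimum total 15) and TMM scaling. The quasi-likelihood test was robust, the Benjamini-Hochberg adjustment ran over all 14066 genes in a comparison, and the threshold was 0.05. SE is the log2 fold change divided by the root of the test's F, and CPM per kb divides by the deposited length. Family shares were tested by two-sided exact permutation in Python 3.11.15 with scipy 1.17.1. On simulated counts for PRODH TAC over vector TAC, over 13768 genes with 67, 67 and 66 changed 1.5-fold, 2-fold and 4-fold, the test recovered 68.7%, 86.6% and 98.5% of them, with 7.14% of calls false. For vector TAC over vector sham it recovered 62.7%, 71.6% and 92.4%, and 6.79% of calls were false. Over the 4 comparisons 4.94% to 9.14% of calls were false. The simulation changed far fewer genes than these data called. It also held no change as small as those called in members other than Rcan1, so it does not cover them. Alternatives were DESeq2 1.42.0, other scalings, filters, sample sets and leaving out libraries.

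The members, gene lists and tests were chosen with earlier results of these data known. Named genes are the members and, from each list, up to 3 genes with the smallest p among those called in each of vector TAC over vector sham and PRODH TAC over vector TAC. Genes like Rcan1 had a standard symbol and at least 5 CPM on average, with a prior count of 0.5. Rcan2 was added after its values were seen. A gene that this rule names is not reported here. Promoter windows came from RefSeq on GRCm38.p6, with GENCODE M21 used to check them.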

Additional observations from a re-analysis of the deposited data

Results flagged for a closer look

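The following values were picked out because 1 library lay far from the other 3 of its group, or because the TAC change differed between the viruses. Of 76 groups of 4 values checked, 5 had such a far library, and chance gives about 1 in 20. Hdac9 was at 5.189 CPM in PRODH sham library 4, with the other 3 at 9.22 to 10.04 CPM, and its share of the class IIa deacetylases was 10.73% there. Mef2d was at 71.91 CPM in PRODH sham library 1, with the others at 64.9 to 65.2 CPM. Rcan1 was at 134.9 CPM in vector TAC library 4, with the others at 145 to 146 CPM, and this lowest value of its group was still above every other group. The Ppp3cb share of the calcineurin catalytic subunits was 37.8% in vector TAC library 3, the library in which Ppp3ca was lowest.

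The TAC change under PRODH minus that under the vector was -0.54 ± 0.09 for Rcan1, 0.43 ± 0.12 for Camk2d and 0.41 ± 0.12 for Mef2a on the log2 scale (adjusted p = 2.63e-05, 0.00802 and 0.0117). For Camk2d and Mef2a it did not pass the threshold without vector TAC libraries 3 and 4 (adjusted p = 0.0799 and 0.0874).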

How the results depend on the processing

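Scaling, depth and single libraries set the limits. In the main fit (TMM, all 16 libraries), members other than Rcan1 changed by less than 0.7 on the log2 scale. The vector TAC over vector sham changes of 6 of them had the other sign under library size alone. In that setting Hdac9 and Mef2c reached 0.78 and 0.72 in PRODH TAC over PRODH sham. Hdac9 and Nfatc3 rest on 142.2 to 299.7 counts as group means. Rcan1 kept its sign and call in all settings.

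Under library size alone, 5 members were called higher and 0 lower in vector TAC over vector sham, where 7474 of the 14066 genes were called higher. In PRODH TAC over PRODH sham 9 members were called higher, as were 7875 of the 14066 genes. In that comparison 96.2% of all calls were then rises, against 49.2% with TMM. Values that changed sign under library size alone were, in vector TAC over vector sham, Mef2d 0.087, Hdac9 0.10, Myocd 0.29, Ppp3cb 0.072, Gata4 0.35, Ppp3ca 0.28 and Camk2d 0.058. In PRODH TAC over PRODH sham they were Mef2d 0.37, Ppp3cb 0.20, Gata4 0.28, Ppp3ca 0.27 and Mef2a 0.29, and in PRODH sham over vector sham Mef2d 0.022 and Mef2a 0.0082. The cause was not tested.

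Other sign changes were in values near 0. Mef2d in PRODH TAC over PRODH sham was 0.0074 without mitochondrial-genome genes, 0.0071 without a filter and 0.010 with only the groups compared, and in PRODH sham over vector sham it was 0.0030 without mitochondrial-genome genes. Gata4 in vector TAC over vector sham was 0.0010 with a filter of 1 CPM. Without vector TAC libraries 3 and 4, Ppp3ca was 0.084 in vector TAC over vector sham and -0.10 in PRODH TAC over vector TAC, the Nfatc3 interaction was 0.054, and 1 member had an interaction called above 0, Mef2d. Without scaling by length, the difference in the Ppp3ca share in PRODH TAC over vector TAC was -0.293 percentage points and that in the Camk2d share in vector TAC over vector sham was 1.19.

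Same-numbered libraries correlated between -0.0903 and 0.164 after their group means were taken out. In each comparison 1 or 2 of 4 libraries had the same-numbered library as best match. The libraries were therefore fitted as unpaired, but low correlations over all genes cannot exclude a shared batch or pairing. With the replicate number as a block, Mef2d in PRODH sham over vector sham was 0.0028, and no member count left its range of 1.5 times.

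Leaving out each library in turn gave 1 to 1 members higher and 4 to 5 lower in vector TAC over vector sham, 3 to 6 higher and 1 to 1 lower in PRODH TAC over vector TAC, 2 to 4 higher and 0 to 0 lower in PRODH TAC over PRODH sham, and 0 to 0 higher and 1 to 2 lower in PRODH sham over vector sham. The interaction was called above 0 for 2 to 5 members and below 0 for 1 to 1. The highest of these counts came without PRODH sham library 1 (4 in PRODH TAC over PRODH sham, 5 in the interaction) and without vector sham library 2 (2 in PRODH sham over vector sham). No share passed in any of them, but none could have. With 4 against 3 libraries the exact permutation test gives no p below 0.0571. A comparison that kept all its libraries was adjusted together with those tests. Ranges that crossed 0 were, in vector TAC over vector sham, Myocd -0.13 to 0.029, Gata4 -0.062 to 0.020 and Ppp3ca -0.15 to 0.036, and in PRODH TAC over vector TAC, Nfatc3 -0.028 to 0.077, Mrtfb -0.037 to 0.11 and Ppp3ca -0.053 to 0.12. In PRODH TAC over PRODH sham they were Mef2d -0.041 to 0.065 and Mef2a -0.11 to 0.026. In PRODH sham over vector sham they were Mef2d -0.061 to 0.024, Mef2c -0.014 to 0.10, Ppp3cb -0.047 to 0.10, Nfatc3 -0.0047 to 0.11, Camk2d -0.051 to 0.070, Gata4 -0.082 to 0.0039 and Mef2a -0.10 to 0.038. The interactions of Nfatc3 and Ppp3ca ran from -0.077 to 0.058 and from -0.14 to 0.077. In percentage points, the Ppp3ca share differed by -1.81 to 1.59, the Mef2c share by -0.705 to 0.331 and the Mef2d share by -2.92 to 0.397 in PRODH TAC over vector TAC, and the Camk2d share by -1.83 to 0.823 and the Mef2d share by -1.02 to 2.56 in vector TAC over vector sham.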
